A study of Mus musculus with 18 samples.

Results

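Active NFATc3 was set against an empty vector in mouse embryonic stem cells on 6 of the 18 arrays of the study, 3 labelled CA-NFATc3 and 3 labelled vector control. The arrays were chosen by these labels alone. Cells of the CGR8 line, a mouse embryonic stem cell line, were kept in serum with LIF and transfected with plasmids by lipofection. The prefix CA ordinarily stands for constitutively active. Each RNA sample was labelled with biotin and read on an Affymetrix mouse array of its own. The other arrays carried RNA of cells given Foxd3 alone, of cells given Foxd3 and CA-NFATc3, and of Foxd3 conditional knockout cells; the first 2 of these groups also entered the fit. All groups of the fit carried transfected plasmid, so the vector cells share the lipofection with the CA-NFATc3 cells. Transfection gives a mixed culture of cells with and without plasmid, and how long after transfection RNA was taken is not stated in the labels. The labels call the 3 samples of a group biological replicates and give no more about their origin.

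NFAT proteins are transcription factors held in the cytoplasm by phosphorylation. A rise in cell calcium activates the phosphatase calcineurin, which strips the phosphates so that NFAT enters the nucleus, often binding DNA beside AP-1 (Fos and Jun dimers). Among the known targets is Rcan1, which binds and inhibits calcineurin and so closes a feedback loop. In embryonic stem cells calcineurin-NFAT signalling is known for its link to the loss of self-renewal and the choice of early lineages; a constitutively active form acts without the calcium signal.

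Values are MAS5 signals on a linear scale, with 3 arrays per group. Median signals of the 6 arrays lay between 56.2 and 63.5, and replicate arrays of these groups had pairwise correlations of 0.989 to 0.990 over probe sets. Of 18193 genes with a probe set, 11609 reached a signal of 65.8 in at least 3 of the 12 arrays fitted and were tested. The embryonic stem cell markers were present: all 8 lay over that signal in both groups, and their summed signal was 97361 to 108890 with the vector and 97572 to 101580 with CA-NFATc3. Of the markers of other cells, the 8 of fibroblasts summed to 329 to 394 and 547 to 720, the 4 measured for blood cells to 69.3 to 110 and 113 to 169, and the 6 of neurons and glia to 4131 to 4235 and 3907 to 4178, nearly all from Stmn2. RNA quality, read as the 3' to 5' ratio, was 2.31 ± 0.034 with the vector and 2.23 ± 0.0255 with CA-NFATc3 for Actb, and 0.92 ± 0.0392 and 0.908 ± 0.0162 for Gapdh. The plasmid itself could not be read: Nfatc3 was 1606, 1591 and 1546 on the 3 vector arrays and 1718, 1796 and 1681 on the CA-NFATc3 arrays (log2 difference 0.13 ± 0.06, limma adjusted p = 0.352). These arrays did not overlap, yet the difference did not pass. A second Nfatc3 probe set read 292, 253 and 213 against 362, 284 and 330. Where on the transcript these probe sets lie is not given here, so they check the label only if the plasmid carries their sequence. Foxd3 itself was 443 ± 55.9 with the vector and 451 ± 38.6 with CA-NFATc3 (adjusted p = 0.958), with a sign that differed between settings. On the arrays labelled Foxd3 alone it read 232, 244 and 236, below all vector arrays, a difference that was not tested. This goes against that label only if the plasmid carries the sequence of the Foxd3 probe set, whose place is not given here.

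The stretches of DNA in front of the genes that rose most are shown because NFAT, AP-1 and TEAD, the partner of YAP, read short motifs there. Of the 6 largest rises, 5 had an entry in the RefSeq promoter table (assembly GRCm38.p6), and Ptgs2 and Rcan1 were added as known NFAT targets. The table gives 3 starts for Gsn, 3 for Dmkn and 2 for Cav1, and only the outermost is shown; both starts of Rcan1 are shown. Each sequence is the 250 bases before that start, read 5′ to 3′ on the gene's own strand, and capitals mark the letters of the NFAT core GGAAA, on either strand, and of the AP-1 motif TGANTCA. None of the 8 holds the TEAD motif GGAATG on either strand.
S100g, chrX:162964600-162964849, minus strand: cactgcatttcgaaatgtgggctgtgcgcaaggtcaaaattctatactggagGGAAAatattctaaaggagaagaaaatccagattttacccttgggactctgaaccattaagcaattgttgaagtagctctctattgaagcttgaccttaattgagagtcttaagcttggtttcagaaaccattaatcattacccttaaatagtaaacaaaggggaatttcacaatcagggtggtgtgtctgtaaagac
Gsn, chr2:35256109-35256358, plus strand: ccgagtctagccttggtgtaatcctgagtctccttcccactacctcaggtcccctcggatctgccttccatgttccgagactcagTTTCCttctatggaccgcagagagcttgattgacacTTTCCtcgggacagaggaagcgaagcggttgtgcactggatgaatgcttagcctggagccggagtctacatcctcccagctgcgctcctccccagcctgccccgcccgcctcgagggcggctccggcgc
Dmkn, chr7:30763506-30763755, plus strand: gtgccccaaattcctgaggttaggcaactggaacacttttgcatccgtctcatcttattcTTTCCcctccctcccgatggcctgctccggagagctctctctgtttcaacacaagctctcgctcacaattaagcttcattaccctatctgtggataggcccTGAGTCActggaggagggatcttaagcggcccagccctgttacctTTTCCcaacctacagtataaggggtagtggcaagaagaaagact
Cav1, chr6:17306085-17306334, plus strand: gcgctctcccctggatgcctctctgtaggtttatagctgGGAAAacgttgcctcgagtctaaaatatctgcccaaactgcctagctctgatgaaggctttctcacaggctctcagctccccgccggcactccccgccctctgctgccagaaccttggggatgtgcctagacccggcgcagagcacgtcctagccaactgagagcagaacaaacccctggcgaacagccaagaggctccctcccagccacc
Cyp26a1, chr19:37697558-37697807, plus strand: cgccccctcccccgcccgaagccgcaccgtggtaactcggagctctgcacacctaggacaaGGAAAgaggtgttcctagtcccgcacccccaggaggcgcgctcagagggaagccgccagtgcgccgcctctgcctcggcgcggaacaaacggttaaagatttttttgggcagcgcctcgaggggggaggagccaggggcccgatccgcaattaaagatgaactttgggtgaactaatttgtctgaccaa
Ptgs2, chr1:150099781-150100030, plus strand: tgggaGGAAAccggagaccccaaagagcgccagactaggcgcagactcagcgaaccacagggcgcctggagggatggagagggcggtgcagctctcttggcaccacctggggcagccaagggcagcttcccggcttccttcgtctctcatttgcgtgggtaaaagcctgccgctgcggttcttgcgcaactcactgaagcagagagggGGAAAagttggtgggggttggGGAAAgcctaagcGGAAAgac
Rcan1, outer start, chr16:92466170-92466419, minus strand: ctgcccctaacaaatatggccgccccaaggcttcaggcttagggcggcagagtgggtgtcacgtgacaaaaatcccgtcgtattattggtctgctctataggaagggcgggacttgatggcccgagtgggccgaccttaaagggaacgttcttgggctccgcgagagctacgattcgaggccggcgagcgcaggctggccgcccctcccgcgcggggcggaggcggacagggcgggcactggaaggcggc
Rcan1, inner start, chr16:92400079-92400328, minus strand: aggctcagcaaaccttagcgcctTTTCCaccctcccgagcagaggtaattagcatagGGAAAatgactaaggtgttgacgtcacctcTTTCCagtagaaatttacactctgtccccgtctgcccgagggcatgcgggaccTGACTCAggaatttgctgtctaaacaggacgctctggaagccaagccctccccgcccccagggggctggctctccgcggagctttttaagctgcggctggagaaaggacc
The Ptgs2 stretch holds 4 matches to GGAAA, 3 of them within 42 bases of the start. The inner start of Rcan1 has 3 matches and 1 to TGANTCA, and its outer start has none of the motifs searched. Which of the Rcan1 starts was in use cannot be read from the arrays.

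A short motif such as GGAAA is common. It was found on either strand in 53% of the 9412 tested genes with a promoter entry and in 55.6% of all 27025 genes with an entry. Each gene was counted once, by its outermost start. Among genes higher with CA-NFATc3 the share was 54.4% of 421, among those higher by at least 2-fold 58.1% of 155, and among lower genes 52.7% of 112. Of the 25 largest rises, 18 had an entry and 15 of these (83.3%) held the motif, while TGANTCA and GGAATG were each in 1 (5.56%). TGANTCA was in 6.89% of the promoters of higher genes, 2.68% of those of lower genes and 3.82% of those of genes tested; GGAATG was in 12.6%, 12.5% and 10.5%. These are counts of letters in a window and were not tested.

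Active NFATc3 moved genes mostly upwards. At a limma adjusted p under 0.05, 680 genes were called (5.86% of those tested), 536 higher (4.62%) and 144 lower (1.24%). Of the higher genes 208 changed by at least 2-fold (1.79%), 45 by at least 4-fold and 11 by at least 8-fold, all on the scale of signal plus 32. Only 5 lower genes reached 2-fold (0.0431%) and 0 reached 4-fold. The median log2 difference was 0.83 over the higher and -0.47 over the lower genes. On 679 of the 680, the 3 signals of either group all exceeded the 3 of its counterpart, as they did on 2327 of all genes tested (20%). The vector mean lay under the testing signal of 65.8 for 126 of the higher genes, so their rise is a lower bound; for these the fold is given as at least the CA-NFATc3 mean over the vector mean, with each vector array under 65.8 raised to that signal first, and a log2 difference printed beside it is the fitted value and no bound.

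CA-NFATc3 replicate 3 stood apart within its group. It gave the highest of the 3 signals on 394 of the 536 higher genes and on 24 of the 25 largest rises. Without it 388 genes were called (318 higher, 70 lower), 381 of them among the 680, and the median difference of the 536 was 0.74 instead of 0.83. All 25 largest rises kept their call without it. The replicate number was not part of the main fit, and the labels do not say that it pairs the samples. Used as a block, it gave 1104 calls (779 higher, 325 lower) that included all 680. Centring each array on its median gave 413 higher and 349 lower genes, 54.2% higher against 78.8% for the signals as deposited, so the balance of rises and falls depends on the scaling.

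**Figure D1:**
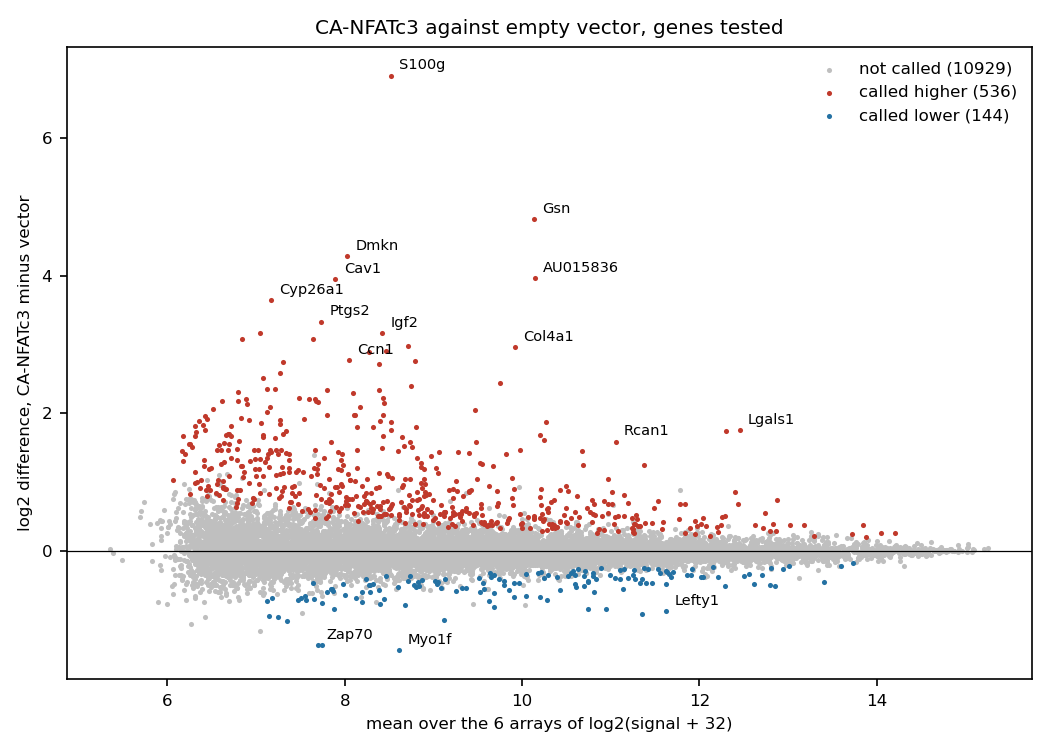
Each point is 1 of the 11609 genes tested; the x axis is the mean of log2(signal + 32) over the 6 arrays and the y axis the log2 difference between CA-NFATc3 and vector. The 536 higher genes (red) reach 6.91 and the 144 lower genes (blue) reach -1.45; grey points were not called.

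The gene that rose most was S100g, which encodes calbindin-D9k, a cytosolic calcium buffer of intestine and uterus. Its signal was 1.57, 1.50 and 1.57 on the vector arrays and 3267, 3876 and 5046 with CA-NFATc3, at least 61.8-fold higher (log2 difference 6.91 ± 0.19, limma adjusted p = 4.44e-12). Gsn, the calcium-activated actin-severing protein gelsolin, read 258, 118 and 187 with the vector and 4771, 6257 and 7076 with CA-NFATc3, a 28.3-fold rise on the scale of signal plus 32 (4.82 ± 0.19, adjusted p = 4.87e-10). Its 3 other tested probe sets gave 3.95 to 4.31, all called. In both genes every CA-NFATc3 array lay far above every vector array.

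Dmkn, a secreted protein of stratified epithelia, read 17.2, 31.1 and 34.3 and then 941, 973 and 1546 (at least 17.5-fold, 4.29 ± 0.20). Lgals7, a galectin of stratified epithelia, went from 48.5, 55.7 and 13.9 to 490.2, 339 and 984 (at least 9.19-fold, 3.08 ± 0.35). The highest CA-NFATc3 array of Lgals7, replicate 3, was more than 2 times the next. Spink1, a secreted inhibitor of trypsin, stood at 382, 256 and 396 and 1763, 1582 and 2778 (2.44 ± 0.24). Tac1, the precursor of the neuropeptide substance P, was at 27.6, 21.7 and 38.1 and 285, 346 and 536 (at least 5.92-fold). Mgp, matrix Gla protein, an inhibitor of calcification, rose from 7.84 ± 5.50 to 313 ± 109 (at least 4.75-fold). AU015836, a gene named only by its expressed sequence, read 209, 279 and 282 and 3652, 4147 and 5816 (3.97 ± 0.17, adjusted p = 8.78e-10).

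Igf2, an imprinted growth factor of embryo and placenta, read 123, 76.0 and 57.6 with the vector and 908, 845 and 1270.5 with CA-NFATc3 (3.16 ± 0.23). Cited1, a transcriptional coregulator of trophoblast and kidney, went from 5.14, 9.63 and 22.8 to 298, 248 and 628 (at least 5.95-fold), replicate 3 again the highest. Rasgrp3, a Ras activator that answers to diacylglycerol, rose at least 4.85-fold, and Stard8 by 2.40 ± 0.26. Pdzrn3, a ubiquitin ligase of cell junctions, rose by 2.72 ± 0.15, Cryab, a small heat shock protein, by 2.91 ± 0.29, Moxd1, a copper monooxygenase, by 2.76 ± 0.16, and Cobll1, an actin-binding protein, by 2.89 ± 0.26. P3h2, which hydroxylates proline in collagen, rose at least 4.58-fold. All 25 kept their call in each of the 18 other settings in which they were tested.

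**Figure D2:**
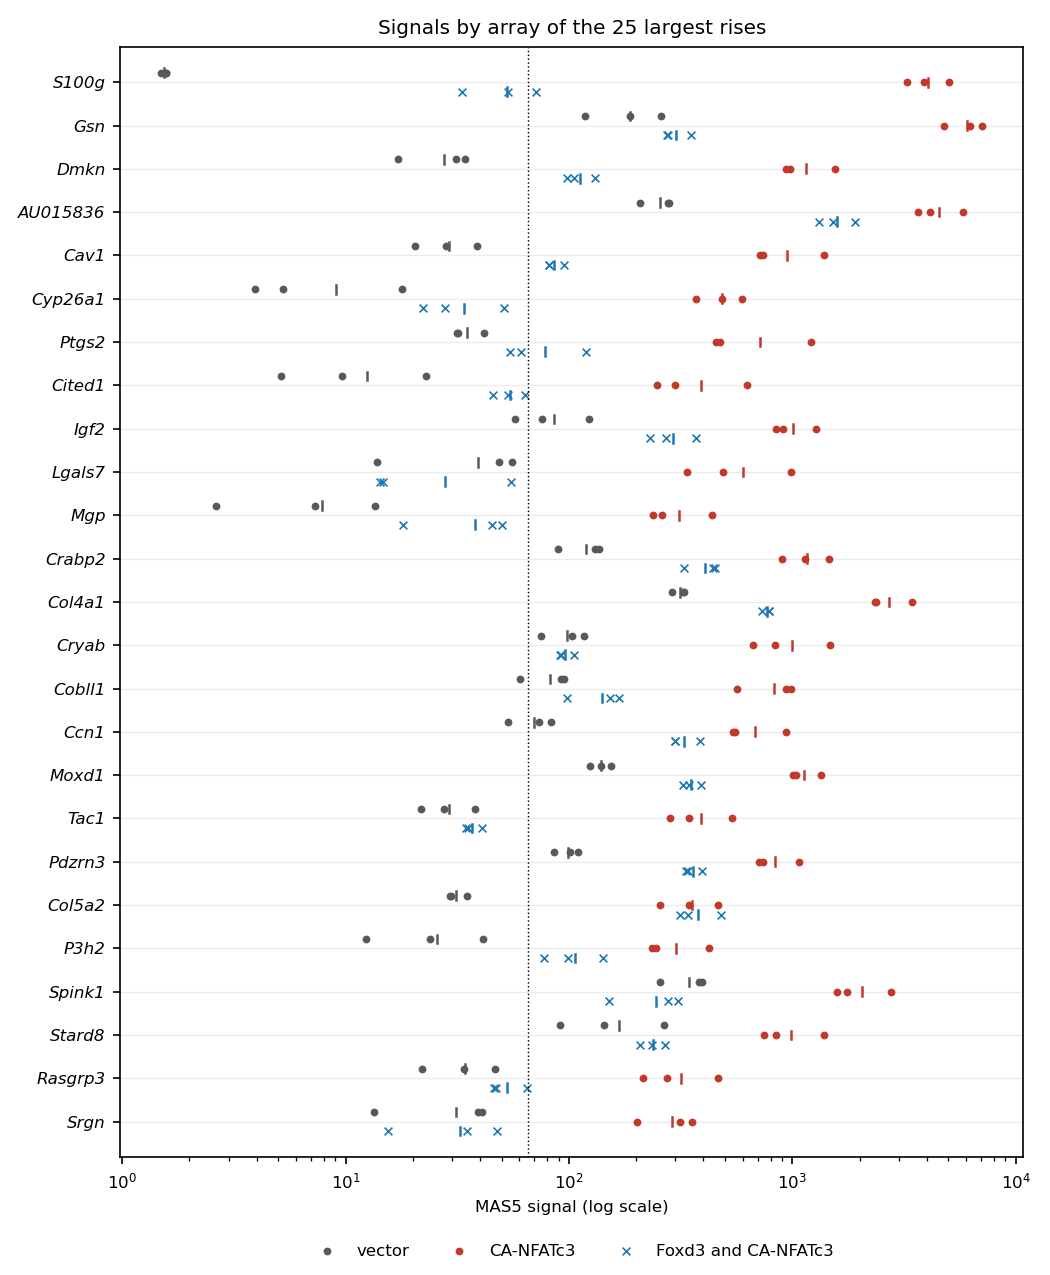
Signals of the 25 largest rises on a log axis, 1 point per array, with ticks at group means: vector in grey, CA-NFATc3 in red, Foxd3 and CA-NFATc3 as blue crosses; the dotted line is the testing signal of 65.8. As the choice of these genes required, red points lie right of all grey points in every row, from S100g (1.55 to 4063 in the means) to Srgn (31.2 to 290.5).

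Of 27 measured calcineurin and NFAT genes 1 was called higher and 0 lower (3.70%, against 5.86% of all genes tested). The counts of this and the later lists stand beside 4.62% higher and 1.24% lower over all genes tested. The lists were chosen with earlier results of these data known, and none was tested as a set. Rcan1, the feedback inhibitor of calcineurin, read 1192, 1137 and 1258 on the vector arrays and 3235, 3274 and 4597 with CA-NFATc3. The lowest CA-NFATc3 array was above the highest vector array by more than 2-fold (1.59 ± 0.11, limma adjusted p = 2.05e-07), and a second probe set gave 1.87. The list median was 0.07, against -0.005 over all genes tested. Of the other NFAT genes, Nfatc1 (0.22), Nfatc2 (0.14), Nfatc4 (-0.02) and Nfat5 (-0.02) did not pass, nor did Rcan2 (0.60, adjusted p = 0.309) and Rcan3 (-0.07). Neither did the calcineurin catalytic subunits Ppp3ca (-0.21), Ppp3cb (0.07) and Ppp3cc (-0.37), or the kinase Src (0.03). The signs of Nfatc2, Nfatc4, Nfat5 and Src differed between settings. With the replicate block 2 members were called higher.

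Immediate early genes, the first to answer a signal at the membrane, were higher in 11 of 25 members and lower in 0 (median 0.48). Ptgs2, the inducible cyclooxygenase and a classic NFAT and AP-1 target, read 31.7, 31.9 and 41.8 with the vector and 474, 456 and 1215 with CA-NFATc3 (at least 10.9-fold, 3.33 ± 0.30, adjusted p = 3.93e-06). CA-NFATc3 replicate 3 was above the other 2 by more than 2-fold, and all 3 were above every vector array. Egr2, a zinc finger factor induced by calcium, went from 28.8, 3.19 and 10.8 to 117, 109 and 161 (at least 1.96-fold). Jun, a subunit of AP-1, rose from 147 ± 17.5 to 364 ± 111 (1.12 ± 0.17), and the small Maf factor Maff by 0.75 ± 0.15. Dusp6, a phosphatase that dampens ERK, rose by 0.63 ± 0.09. Egr1 read 731, 369 and 908 and 1807, 1258 and 3932 (1.68 ± 0.45, adjusted p = 0.0356); without CA-NFATc3 replicate 3 it did not pass (0.216), nor without CA-NFATc3 replicate 1 (0.0564) or vector replicate 1 (0.0688) or 2 (0.164). Ier3 was also higher, a call lost without CA-NFATc3 replicate 2 (limma adjusted p = 0.17) or 3 (0.175) or vector replicate 1 (0.198) or 3 (0.148). Fos (0.63, adjusted p = 0.181), Junb (0.01) and Atf3 (-0.20) were not called. The count of 11 fell to 5 without CA-NFATc3 replicate 3 and to 6 without vector replicate 1 or 3; with the block 1 member was lower.

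In the list of YAP and SRF targets 9 of 25 members were higher and 0 lower (median 0.35). YAP and SRF are factors that answer to cell tension and the actin state. The list also counts these factors themselves and the TEAD partners of YAP. The tested members include 3 genes of caveolae, the flask-shaped pits of the cell membrane. Cavin2 (10.2 and 21.6 in the means) and Cavin3 (35.6 and 37.5), also of caveolae, were too low to be tested. Cav1, their main coat protein, read 38.6, 20.4 and 28.0 and 715, 742 and 1379.8 (at least 14.4-fold). Cav2, its partner, read 43.3, 34.8 and 33.3 and 218, 223 and 365 (at least 4.09-fold), and Cavin1, the cytosolic coat protein, read 420.4, 465 and 441 and 997, 1024 and 1354 (1.27 ± 0.11). All 3 were apart in every array. Ccn1, a matricellular protein and common YAP readout, read 53.4, 83.1 and 73.1 and 555, 542 and 938 (2.77 ± 0.20); its 3 other probe sets gave 1.36 to 1.58, and 2 of these were called. Fhl2, a LIM-domain cofactor of SRF, rose at least 5.43-fold, from 51.4 ± 13.1 to 357 ± 45.8, and Ptpn14, a phosphatase that restrains YAP, by 0.88 ± 0.12. Ccn2, the sister of Ccn1 and an equally common readout, was at 0.84 and did not pass (adjusted p = 0.106).

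Of 25 genes of the actin cytoskeleton and smooth muscle, 5 were higher and 0 lower, with a median of 0.06. Beside Gsn, these were Tpm4, a tropomyosin (0.70 ± 0.10), Cald1, caldesmon (0.71 ± 0.15, adjusted p = 0.594 when its probe sets were averaged), and the calponins Cnn2 (0.51) and Cnn3 (0.25). Both calponins lost their call without CA-NFATc3 replicate 3 (adjusted p = 0.14 and 0.067), Cnn2 also without vector replicate 2 (0.0911) or 3 (0.0897) and Cnn3 without vector replicate 1 (0.0531). The count was 3 without CA-NFATc3 replicate 3, and 8 with the replicate block. Actb, the cytoplasmic actin, was at 0.06 (adjusted p = 0.832), with a sign that differed between settings.

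Of 19 measured S100 proteins, annexins and galectins, 8 were higher and 0 lower (median 0.36), and 8 were higher in each fit that left out 1 array; with the replicate block 1 was lower. Lgals1, a secreted galectin that binds sugars on cell surfaces, read 2582, 3429 and 3104 with the vector and 10579, 8833 and 11652 with CA-NFATc3 (1.76 ± 0.11, adjusted p = 9.20e-08; 1.74 in its other probe set). S100a6, a calcium sensor of dividing cells, read 1589.5, 1588 and 1909 and 3930.1, 3621 and 4700.1 (1.25 ± 0.12). Anxa1, a calcium-dependent phospholipid binder, stood at 297, 286 and 483 and 787, 1020.1 and 1203 (1.43 ± 0.23). Anxa2, which links membranes to actin, stood at 696, 1220.2 and 1040.0 and 2319, 2378 and 3451 (1.45 ± 0.21); its other probe set, at 0.72, was not called. In all 4 the groups were apart. The relatives S100a10 (0.22), Anxa4 (0.37), Anxa6 (0.15), Anxa7 (0.14) and Lgals3 (-0.24) did not pass.

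**Figure D3:**
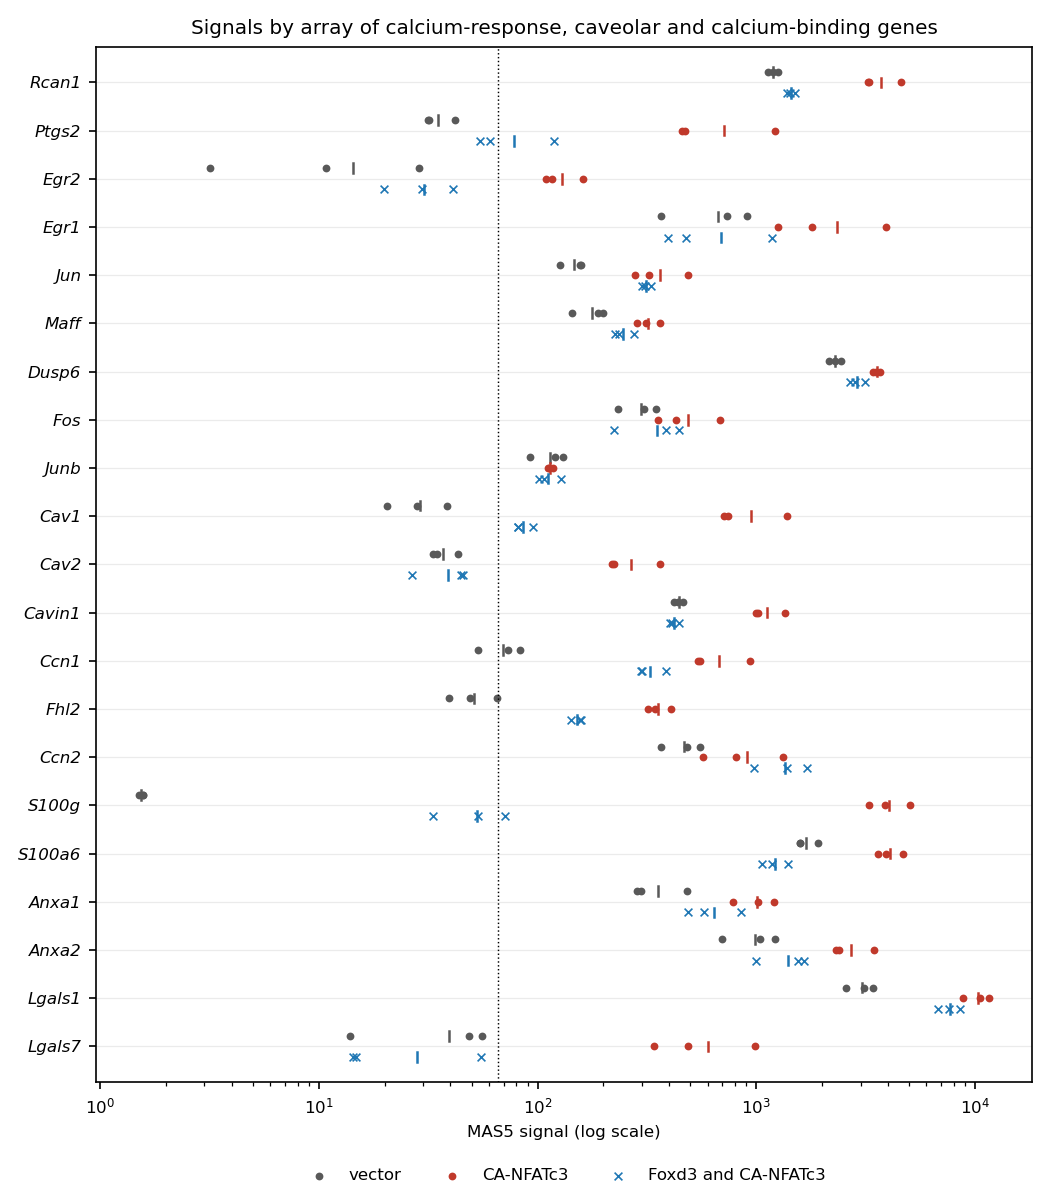
Signals on a log axis, 1 point per array with ticks at group means, of calcineurin feedback and immediate early genes (Rcan1 to Junb), caveolar and other YAP or SRF targets (Cav1 to Ccn2) and calcium-binding proteins and galectins (S100g to Lgals7). Vector is grey, CA-NFATc3 red, both plasmids blue crosses; Rcan1 separates at 1196 against 3702 in the means, while the points of Junb overlap.

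Genes of the outer, placenta-forming lineage moved in part. Of 18 trophectoderm factors 6 were higher and 0 lower (median 0.11), and of 11 trophoblast products and placental genes 5 were higher and 0 lower (median 0.50). Eomes, a T-box factor of trophoblast stem cells and mesendoderm, read 135, 119 and 78.1 and 467, 507 and 587 (1.97 ± 0.20, adjusted p = 9.96e-06), and its other probe set gave 1.79. Elf5, an ETS factor of the trophoblast, read 23.7, 14.5 and 2.92 and 169, 118 and 184 (at least 2.39-fold). Gata2, a trophoblast and blood factor, rose from 120.2 ± 22.4 to 265 ± 49.7 (0.96 ± 0.17). The lineage's other founding factors stayed low: Cdx2 read 20.9, 18.5 and 5.26 with the vector and 42.7, 12.3 and 5.30 with CA-NFATc3, and Gata3 1.72, 1.003 and 1.55 against 9.68, 14.6 and 13.97, both too low to be tested. Tfap2c, which makes up most of the trophectoderm marker sum, was at 0.12 (adjusted p = 0.650). The summed signal of the 7 trophectoderm markers was 2777 to 3460 with the vector and 3795 to 4295 with CA-NFATc3; its part in these results was not tested. In bulk RNA a change in the number of cells of a type and a change in RNA per cell cannot be told apart, here or in the lineages below.

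Among placental genes Plac8 rose by 1.06 ± 0.17 and the ligand Wnt7b by 1.04 ± 0.17. Peg10, a retrotransposon-derived gene needed for the placenta, read 30.6, 3.65 and 11.9 and 56.4, 68.1 and 136 (at least 1.32-fold), and lost its call without CA-NFATc3 replicate 3 (0.0948) or vector replicate 2 (0.0607). Without CA-NFATc3 replicate 3 only 2 placental genes were called higher, and without vector replicate 3 only 3. Averaging the probe sets of a gene left 3 of the 6 trophectoderm calls, and 1 trophectoderm factor was lower without vector replicate 1 and 1 with the block.

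Keratin and epithelial junction genes were higher in 9 of 30 members and lower in 0 (median 0.25), with Dmkn, given above, among the higher. Krt19, a keratin of simple epithelia, read 68.2, 119 and 91.8 with the vector and 463, 479.8 and 839 with CA-NFATc3 (2.29 ± 0.26, adjusted p = 3.72e-05). The tight junction proteins Cldn7 (from 335, 462 and 351 to 1025, 1254 and 1347, 1.59 ± 0.16) and Ocln, occludin (from 320.4, 349 and 309.6 to 677, 699 and 897, 1.13 ± 0.12), rose with no overlap. The keratins Krt8 and Krt18, typical of early embryonic epithelium, did not pass: Krt8 was at -0.06 (adjusted p = 0.900) and Krt18 at 0.23. Cdh1, E-cadherin, was at 0.11. With 6 of 9 calls left, CA-NFATc3 replicate 3 and vector replicate 3 were the arrays whose removal cost most; with the block 1 member was lower.

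Genes of primitive and visceral endoderm, the layers that feed the embryo before the placenta, were higher in 6 of 17 members and lower in 1 (median 0.45). The list holds products and receptors of these layers as well as their regulators. Lrp2, megalin, an uptake receptor of visceral endoderm, read 75.9, 42.3 and 58.9 and 369, 273 and 555 (at least 5.77-fold, 2.21 ± 0.24). Sox17, a factor of definitive and primitive endoderm, read 32.7, 25.3 and 46.9 and 208, 99.97 and 166 (at least 2.40-fold, 1.47 ± 0.25, adjusted p = 0.00152). Dab2, an endocytic adaptor working with megalin, read 35.7, 54.1 and 80.3 and 166, 160.1 and 174 (at least 2.36-fold). Srgn, the granule proteoglycan serglycin, rose at least 4.42-fold, and Rhox5, a homeobox gene of the X chromosome, by 0.54 ± 0.11. Gata6, which specifies primitive endoderm, read 58.3, 79.6 and 62.5 and 89.6, 103 and 143: the groups did not overlap, but the difference did not pass (0.53 ± 0.22, adjusted p = 0.235). Gata4 (48.0 and 66.6 in the means), Pdgfra (42.8 and 66.2) and Foxa2 (10.4 and 34.3) did not reach the testing signal in 3 arrays. The 7 primitive endoderm markers summed to 365 to 497 and 653 to 980; their part was not tested.

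Basement membrane genes, which endoderm makes in quantity, were higher in 7 of 25 members and lower in 0 (median 0.33). The type IV collagen chains rose together, Col4a1 from 289, 328 and 326 to 2358, 2340.2 and 3439.8 (2.97 ± 0.13, adjusted p = 1.08e-09; 2.01 in its other probe set) and Col4a2 from 137, 133 and 114 to 612, 624 and 957 (2.23 ± 0.17). These genes lie head to head on chromosome 8. Lama4, a laminin chain of vessels, read 7.30, 35.8 and 29.5 and 192, 157 and 354 (at least 3.56-fold). Serpinh1, the collagen chaperone of the endoplasmic reticulum, rose by 0.99 ± 0.12, Nid2, nidogen, by 0.40 ± 0.07. The counts of this and the endoderm list moved by no more than 1.5 times when any 1 array was left out.

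Fibroblast and mesenchymal matrix genes were mixed, with 3 of 14 members higher and 2 lower (median 0.44). Col5a2, a fibrillar collagen chain, read 29.4, 29.8 and 34.9 and 256, 346 and 467 (at least 5.42-fold; 1.27 in its other probe set), and Col3a1, its neighbour on chromosome 1, 20.5, 21.6 and 12.2 and 184, 192 and 286 (at least 3.35-fold). Twist1, a mesenchymal bHLH factor, rose at least 3.24-fold, from 44.6 ± 15.7 to 213 ± 44.7. Zeb1 (-0.51; adjusted p = 0.777 with its probe sets averaged) and Tgfbi (-0.47) were lower, and neither call held without CA-NFATc3 replicate 3 (adjusted p = 0.0786 and 0.106) or vector replicate 3 (0.0968 and 0.0849); Zeb1 also lost it without CA-NFATc3 replicate 2 (0.0874) and Tgfbi without vector replicate 1 (0.0773). Of the 8 fibroblast markers, the defining Col1a1 (13.97 and 14.4 in the means), Postn (4.71 and 5.44), Dcn (9.85 and 3.87) and Lum (22.1 and 7.29) were too low to be tested. Col1a2 (27.2 and 51.6), Thy1 (136 and 145) and Pdgfrb (123 and 202) were tested and not called, though the arrays of Pdgfrb did not overlap. Most of the rise of the marker sum given above was Col3a1 itself. Matrix proteases and inhibitors were higher in 6 of 15 members and lower in 1: Adamts9, a secreted protease, rose by 1.21 ± 0.20 and Timp2, an inhibitor of metalloproteinases, by 0.96 ± 0.14. Without CA-NFATc3 replicate 3 only 2 of the 6 were called, and without vector replicate 3 only 3; the lower call, Mmp11, was lost without CA-NFATc3 replicate 1 or 2 or vector replicate 2 or 3.

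Of 14 chemokines, cytokines and receptors 3 were higher and 0 lower, and 25 more lay under the testing signal. Cxcl1, a neutrophil chemokine, read 84.6, 95.6 and 135 and 315, 241 and 409 (1.36 ± 0.21, adjusted p = 0.000598), with 2.14 and 3.06 in its 2 other probe sets, both called. The scavenging receptor Ackr3 (0.86 ± 0.19) lost its call without CA-NFATc3 replicate 2 (0.0553) or 3 (0.0897), and without replicate 3 the list count was 1. In the interferon and MHC class I list 1 of 20 members was higher and 0 were lower (5%, near the 5.86% of all genes tested). The higher member was the guanylate-binding protein Gbp3 (at least 2.12-fold, 1.54 ± 0.29). In this list 2 were higher without CA-NFATc3 replicate 1, and 1 was lower without vector replicate 1.

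Retinoic acid genes had 2 of 17 members higher and 2 lower. Cyp26a1, which breaks down retinoic acid, read 17.9, 5.23 and 3.95 and 483, 372 and 595 (at least 7.34-fold), and Crabp2, which carries retinoic acid to its receptor, 131, 89.6 and 136 and 1136, 904 and 1459.9 (2.98 ± 0.20). Stra8, the retinoic acid target of meiotic entry, went the other way: 236, 369.9 and 351 with the vector and 109.9, 74.6 and 124 with CA-NFATc3 (-1.37 ± 0.18, adjusted p = 0.000114). The receptor Rarg was lower (-0.59 ± 0.14), a call lost without CA-NFATc3 replicate 1 (0.0529) or 3 (0.0929) or vector replicate 1 (0.0586) or 3 (0.0816). The 3 retinoic genes with the largest differences thus point in both directions, each with its arrays apart.

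In the TGF-beta, BMP and activin list 5 of 30 members were higher and 3 lower. Smad6, the inhibitory Smad of the BMP pathway, read 203, 232 and 237 and 656, 574 and 896 (1.51 ± 0.16), and the ligand Bmp2 24.7, 22.3 and 19.4 and 87.2, 146 and 83.2 (at least 1.60-fold). Lower were Lefty1, an inhibitor and target of Nodal (3929, 4052 and 4798 against 2139, 2288 and 2475, -0.88 ± 0.10), Inhbb, the activin B subunit (-0.92 ± 0.13; -0.26 in its other probe set, not called), and Nodal itself (-0.40 ± 0.11, adjusted p = 0.0487). The call of Nodal ended with any 1 array left out (adjusted p = 0.0613 to 0.202). The 5 higher calls became 2 without CA-NFATc3 replicate 3 or vector replicate 3, 3 without CA-NFATc3 replicate 2 or vector replicate 1 or 2, and 8 with the replicate block.

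Of 28 FGF and ERK genes 4 were higher and 2 lower. The receptor Fgfr2 read 115, 107 and 91.0 and 269, 256 and 314 (1.19 ± 0.15; adjusted p = 0.249 when its probe sets were averaged). Dusp9, an ERK phosphatase of undifferentiated cells, was outside this list and fell from 2234, 1985 and 2639.8 to 1499, 1112 and 1182 (-0.84 ± 0.16; -0.99 and -0.93 in its other probe sets), whereas Dusp6 rose. Without CA-NFATc3 replicate 3 or vector replicate 2 the higher count was 2, and the lower count 1 without CA-NFATc3 replicate 2 or 3 or vector replicate 3; with the block they were 7 and 4. Among 27 WNT genes 4 were higher and 2 lower. Apcdd1, a membrane inhibitor of WNT, read 382, 292 and 286 and 1324, 1345 and 1578 (2.05 ± 0.14, adjusted p = 1.60e-07). The TCF factors parted, with Tcf7l2 higher (0.97 ± 0.16) and Tcf7l1, the repressor that restrains pluripotency genes, lower (-0.57 ± 0.10). Without CA-NFATc3 replicate 1 or 3 or vector replicate 2 or 3 the lower count of the WNT list was 1, and with the block it was 5. Of 13 ephrins and Eph receptors only 1 was called (7.69%, near the 5.86% of all genes tested). It was Efnb2, the ligand ephrin-B2, at 86.5, 132 and 106 with the vector and 479, 536 and 689.7 with CA-NFATc3 (2.10 ± 0.21, and 1.29 in its other probe set). A second member was higher without CA-NFATc3 replicate 1, and 1 was lower with the replicate block.

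Of 19 imprinted genes 4 were higher and 1 lower: beside Igf2 and Peg10, Sgce, a sarcoglycan that shares its imprinted locus with Peg10, rose by 1.46 ± 0.23 (adjusted p = 0.0595 when its probe sets were averaged), while Phlda2, a brake on placental growth, fell from 7414 ± 357 to 5337 ± 751 (-0.48 ± 0.09). Of the higher imprinted genes 2 were left without CA-NFATc3 replicate 3 or vector replicate 2. Among glutathione peroxidases Gpx8, of the endoplasmic reticulum, rose by 0.94 ± 0.19, and Gpx2 and Gpx3 were also higher. The last 2 lost their calls without CA-NFATc3 replicate 3 (limma adjusted p = 0.114 and 0.0742) or vector replicate 1 (0.0504 and 0.0538). Gpx2 also lost it without vector replicate 2 (0.082) and Gpx3 without vector replicate 3 (0.0662). Gpx4, which protects lipids, fell from 11109, 13681 and 13528 to 10493, 8783 and 8635 (-0.46 ± 0.09). In that list of 29 antioxidant genes 3 were higher and 4 lower; without CA-NFATc3 replicate 3 these were 1 and 1, without vector replicate 1 they were 1 and 2, and vector replicates 2 and 3 each left 1 of the lower calls; with the block 8 were lower. Ion channels and pumps gave 4 higher and 3 lower of 17. Atp2b1, the plasma membrane calcium pump, rose by 0.48 ± 0.09 and Atp1b1, a subunit of the sodium pump, by 0.48 ± 0.10. None of the 3 lower ion genes kept its call without CA-NFATc3 replicate 3 or vector replicate 3, and 1 did without vector replicate 2; the higher count was 2 without CA-NFATc3 replicate 3. Germline genes gave 1 higher, Taf7l (1.15 ± 0.20), and 2 lower of 19, Stra8 and Prdm14. In the DNA methylation list of 10 the dioxygenase Tet2 was lower (-0.41 ± 0.09; 0.0514 without vector replicate 3), and Dnmt3b, a de novo methyltransferase, was higher (0.68 ± 0.16) but not without CA-NFATc3 replicate 3 (0.124) or vector replicate 2 (0.0967) or 3 (0.106). Another member was higher without CA-NFATc3 replicate 2, and the block called 3 higher and 2 lower.

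Pluripotency genes were called only lower. Of 34 core and naive genes 0 were higher and 7 lower (median -0.14), and no fall in the list went past -0.52. Prdm14, which holds the naive state, read 1876, 1732 and 1919 and 1226, 1321 and 1271 (-0.52 ± 0.08, adjusted p = 0.000437). Nr0b1, an orphan nuclear receptor, read 5897, 5612 and 6277 and 4274, 3814 and 4402 (-0.51 ± 0.07), and Dppa2, a chromatin protein of the early embryo, 8704, 7753 and 8875 and 6086, 5974 and 5856 (-0.50 ± 0.07). In each of these the groups were apart, and the calls held in every setting tried. Klf2 read 6237, 6295 and 7210.1 and 4997, 5062 and 5132 (-0.37 ± 0.08), a call lost without vector replicate 3 (0.0805). The core factors overlapped between groups: Pou5f1 read 9650.5, 10678 and 10923 and 10249, 9599.5 and 8306 (adjusted p = 0.374), Nanog 13840.0, 14725 and 15703 and 15270.0, 11836 and 12724 (0.433), and Sox2 15822, 17080.0 and 17563 and 15460.0, 16949 and 15644 (0.667). Klf4 was at -0.12 and Esrrb at -0.13, and neither passed. The 7 lower calls became 4 without CA-NFATc3 replicate 1 or 3 or vector replicate 2, and 3 without vector replicate 3.

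The largest falls lay outside that list. Myo1f, an unconventional myosin of leukocytes, read 651, 479.5 and 739.7 with the vector and 265, 180.0 and 179 with CA-NFATc3 (-1.45 ± 0.18, adjusted p = 0.000112), and its 2 other probe sets gave -1.62 and -1.16, both called. Zap70, a kinase of the T cell receptor, read 354, 339 and 228 and 126, 131 and 51.7 (-1.37 ± 0.28), but its 2 other probe sets gave only -0.34 and -0.08. Actn3, a muscle alpha-actinin, read 752, 727 and 781 and 447, 319 and 327 (adjusted p = 0.000266). Gfra1, the receptor for the growth factor GDNF, read 186, 161 and 196 and 77.5, 85.4 and 67.0 (-0.97 ± 0.16), and Prmt8, an arginine methyltransferase of neurons, 164, 243 and 198 and 127, 74.4 and 56.4 (-1.02 ± 0.20). Groups were apart in all of these, as the choice of the 12 required. Napsa (-0.95) and Kbtbd11 (-0.84) lost their calls with the mean of a gene's probe sets (adjusted p = 0.123 and 0.578), and the peptide transporter Slc15a1 (-0.85) without CA-NFATc3 replicate 1 (0.0923) or 3 (0.106) or vector replicate 2 (0.0914) or 3 (0.0677). The other 9 of the 12 largest falls kept theirs wherever they were tested.

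**Figure D4:**
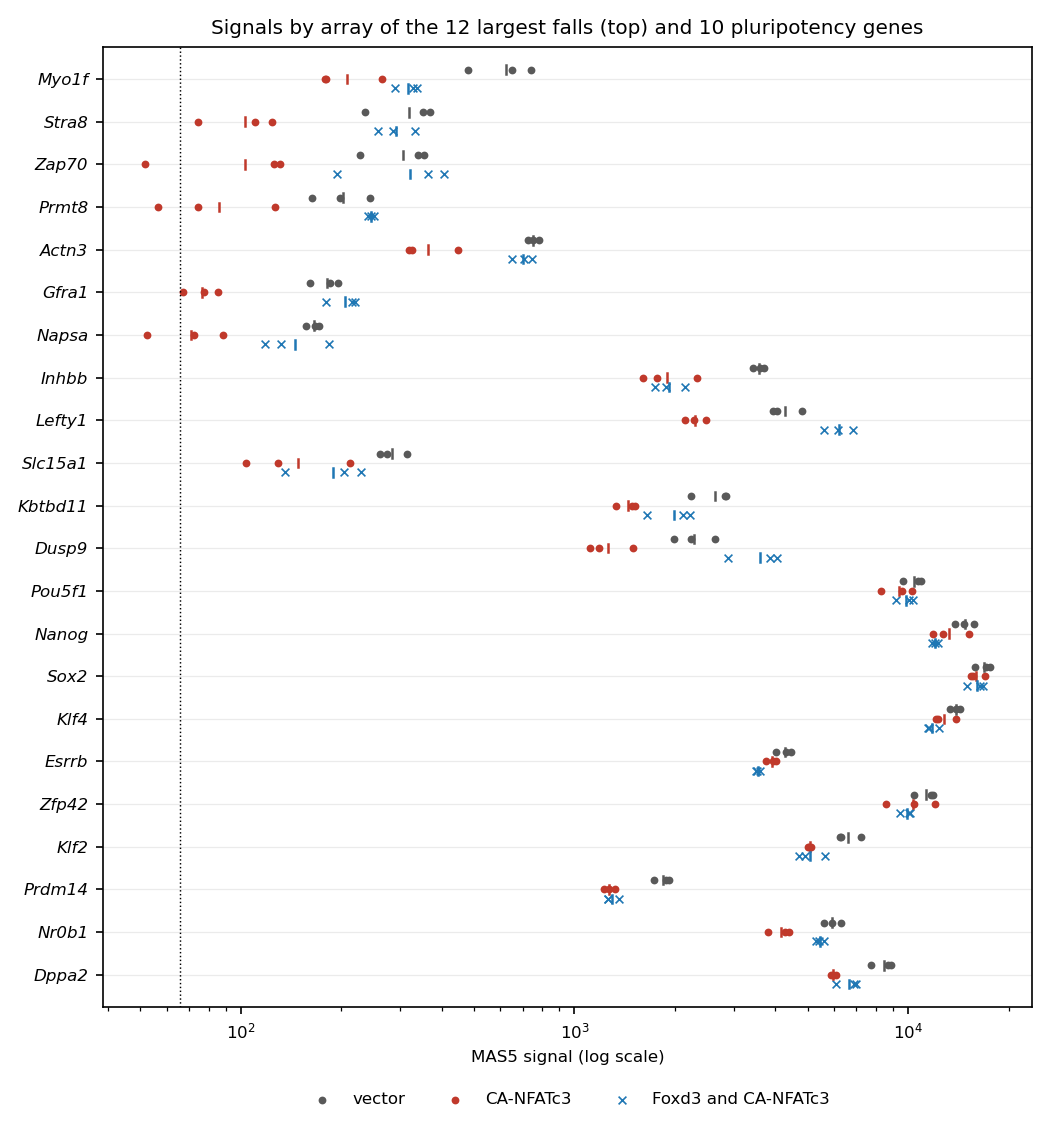
Signals on a log axis, 1 point per array with ticks at group means, of the 12 largest falls (Myo1f to Dusp9) and 10 pluripotency genes (Pou5f1 to Dppa2); vector is grey, CA-NFATc3 red, both plasmids blue crosses, and the dotted line the testing signal of 65.8. Myo1f falls from 624 to 208 in the means, while the points of Pou5f1, Nanog and Sox2 overlap.

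Primed epiblast and neuroectoderm genes had 2 of 24 members higher and 1 lower (median -0.13). Pou3f1, a POU factor of the epiblast, read 189, 113 and 96.8 and 378, 305 and 327 (1.19 ± 0.22; adjusted p = 0.207 when its probe sets were averaged). Zic5, a zinc finger factor of the neural plate, fell from 1682, 1287 and 1422 to 1021, 943 and 766 (-0.67 ± 0.12). The higher count was 1 without CA-NFATc3 replicate 3 or vector replicate 2 or 3, the lower count was 2 without CA-NFATc3 replicate 1, and 4 were lower with the replicate block. In the mesendoderm list 3 of 13 were higher and 0 lower, Eomes and Bmp2 given above and Hand1 (at least 1.78-fold, 0.88 ± 0.21), whose call was lost without CA-NFATc3 replicate 1 (0.0637) or 3 (0.0746) or vector replicate 1 (0.0588) or 3 (0.076).

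Of 40 cyclins, replication and mitosis genes and CDK inhibitors limma called 0 (median -0.05). An unadjusted p under 0.05 was reached by 1 of these, and by 1866 of all 11609 genes tested. With the replicate block 2 of the 40 were lower. Cdkn1a, the p53 target p21, was at 0.07. Of 26 p53 and apoptosis genes 3 were higher, among them Bcl2l1, an inhibitor of apoptosis (0.63 ± 0.12); 5 were higher without CA-NFATc3 replicate 1, 1 without CA-NFATc3 replicate 2 or 3 or vector replicate 1 or 3, and 6 with the block, while 1 was lower without vector replicate 1. In the stress list 2 of 27 were higher and 0 lower (7.41%, near the 5.86% of all genes tested). These were Hspa1b, a heat-inducible chaperone, by 0.68 ± 0.13, and Canx (0.20), whose call did not survive the loss of any 1 array. With the block 4 were higher and 1 lower, and 2 were lower without vector replicate 1. Cholesterol and fatty acid genes had 1 of 26 higher, Srebf2 (0.36 ± 0.10), and 0 lower (3.85%, below the 5.86% of all genes tested). In this list 0 were called without CA-NFATc3 replicate 1, 2 or 3 or vector replicate 2 or 3 and 5 with the block. Blood cell and neuron or glia genes had 0 called of 4 and 0 of 7, with 3 and 2 at an unadjusted p under 0.05; with the block 1 of each was lower, and 1 neuron or glia gene without CA-NFATc3 replicate 1.

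**Figure D5:**
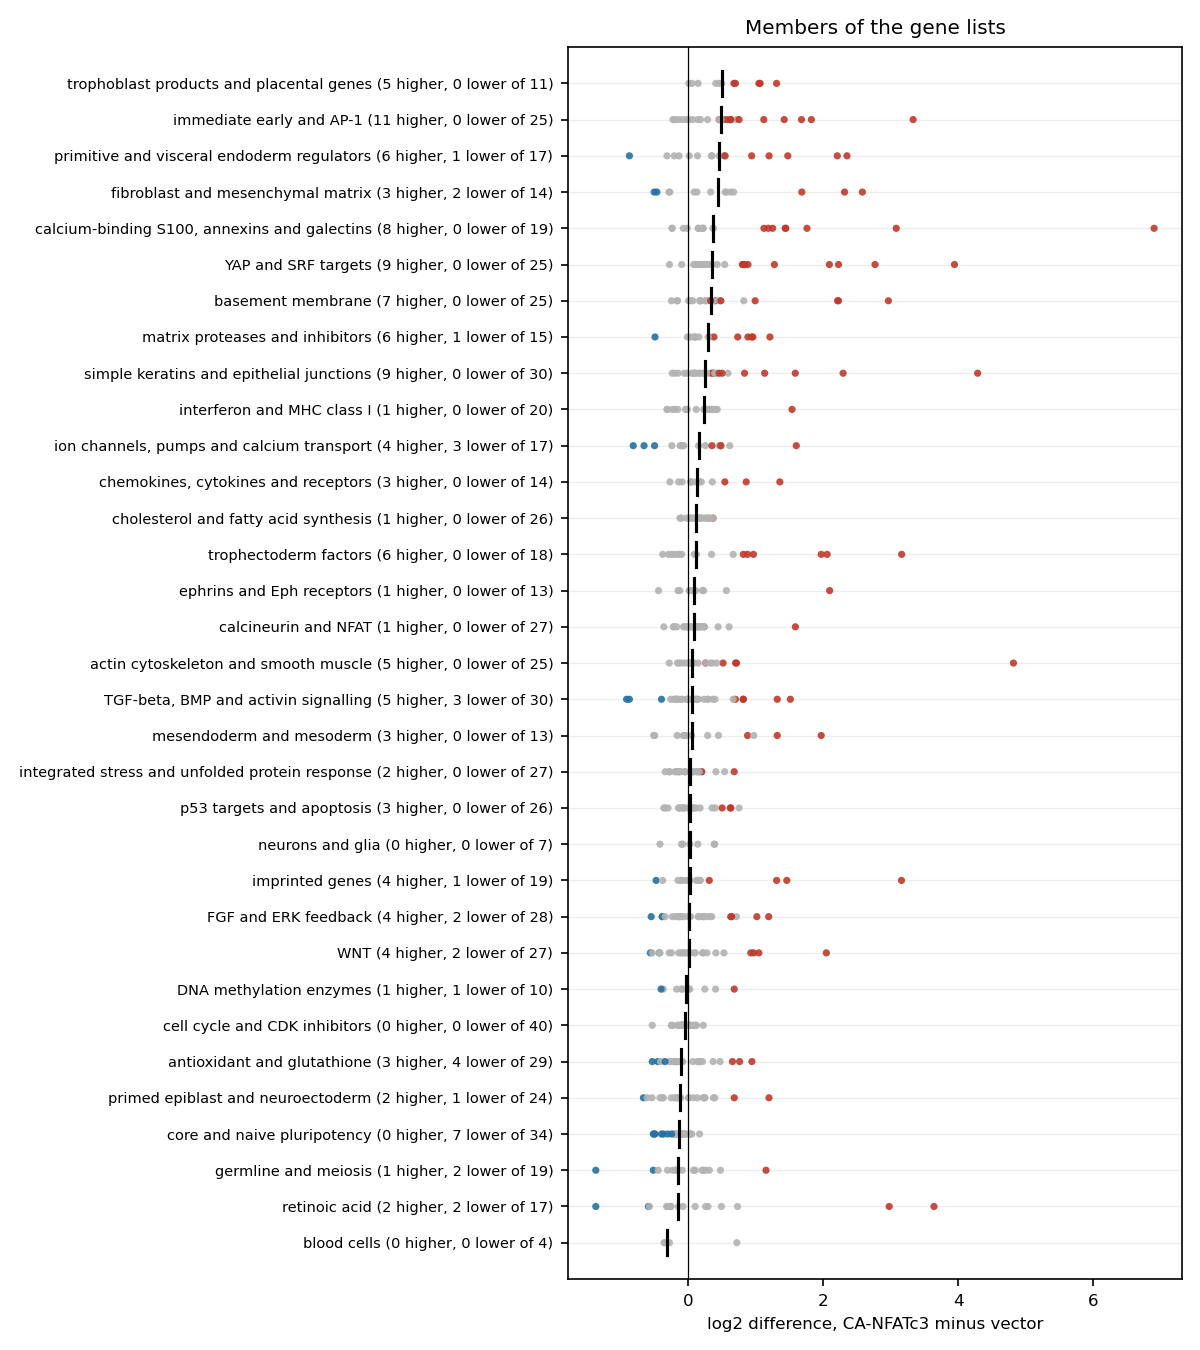
Log2 differences between CA-NFATc3 and vector of the tested members of 33 gene lists, ordered by list median (black tick); red members were called higher, blue lower and grey neither. The immediate early list (11 higher, 0 lower of 25) lies near the top and the pluripotency list (0 higher, 7 lower of 34) near the bottom.

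The same genes were also measured in cells given Foxd3 and CA-NFATc3 together. That comparison with CA-NFATc3 alone shares the CA-NFATc3 arrays with the one above, so the values are set side by side. Genes named for a rise lean towards lower in it and those named for a fall towards higher. Its p-values do not allow for that choice. The Foxd3 signal with both plasmids was 277, 210.2 and 214, lower than with CA-NFATc3 alone (-0.87 ± 0.13, limma adjusted p = 0.000452). This goes against the label only if the plasmid carries the sequence of the Foxd3 probe set. Over all genes 711 (6.12%) differed between these groups, 428 lower (3.69%) and 283 higher (2.44%) with both plasmids; without CA-NFATc3 replicate 3 there were 416, and 1258 with the block. S100g read 33.3, 53.6 and 71.3 with both plasmids, at least 60.1-fold lower than with CA-NFATc3 alone (adjusted p = 1.07e-10), by the same lower bound. Gsn read 352, 276 and 278 (-4.17 ± 0.19), Rcan1 1432, 1384 and 1508 (-1.32 ± 0.11, adjusted p = 2.35e-06) and Elf5 1.89, 3.97 and 4.10 (at least 2.39-fold lower). AU015836 was intermediate at 1528, 1320.3 and 1903 (-1.49 ± 0.17). Col5a2 read 315, 340.4 and 479.9 (0.10 ± 0.24, adjusted p = 0.911), Efnb2 920.2, 619 and 1087 (0.58 ± 0.21, 0.137), and Bmp2 was higher with both, at 314, 391 and 275 (1.40 ± 0.20, 0.000385). Lefty1, lower with CA-NFATc3, read 6171, 5588 and 6842 with both (1.42 ± 0.10, 8.63e-07), and Inhbb 2145, 1881 and 1737 (0.03 ± 0.13, 0.953).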

How the data were processed

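The authors deposited linear intensities, 1 per probe set and array; MAS5 is named, without a version, in the submitters' processing notes. The trimmed mean was 500 on every array, as MAS5 scaling gives; detection calls were not used here. Of 45101 probe sets, 34945 carried a single symbol in GEO's platform table; for each of 18193 genes the set of highest mean across the 18 arrays was kept.

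Signals plus 32 were put on the log2 scale. Genes at 65.8 (the median of all deposited values) or more in at least 3 of 12 arrays of transfected cells were tested with limma 3.58.1 in R 4.3.3 (lmFit, eBayes with a variance trend, Benjamini-Hochberg, adjusted p under 0.05). Values are log2 differences ± SE, or means ± SD of 3 arrays; the number of arrays limits the precision. The same-number pairs of CA-NFATc3 and vector arrays correlated in their residuals at 0.133 to 0.151, other pairs at -0.147 to 0.0133. Arrays of the same number thus shared a small part of their spread. The labels state no pairing, and the main fit used no block. The script was tested on simulated data. Plots used matplotlib 3.10.9 under Python 3.11.15.

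By rule 158 genes were chosen for naming. They include the 25 largest rises and 12 largest falls among called genes with groups apart. The others are up to 6 called members per list and direction, and fixed controls. Not all of the 158 are named in the text. Those left out include called members that lost their call in some settings, such as Id2 and Met (limma adjusted p = 0.225 and 0.19 without CA-NFATc3 replicate 3). The comparison, lists and rules were chosen with earlier results of these data known. Tested list members that were not called are named where they define a list.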

Additional observations from a re-analysis of the deposited data

How the results depend on the processing

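The 680 calls ranged from 388 to 667 when 1 of the 6 arrays was left out, and were 1104 with the replicate block. At least 2-fold calls numbered 213, and 118 with an offset of 100 in place of 32. The 711 calls of both plasmids against CA-NFATc3 became 1258 with the replicate block and ranged from 416 to 630 with 1 CA-NFATc3 array left out. Quantile normalization gave 655 calls, array weights 938, all 18 arrays in 1 fit 850 and the mean of a gene's probe sets 506. Of the 680 genes 300 (259 higher, 41 lower) kept their call in all settings in which they were tested. No called gene among the 158 chosen for naming changed direction in any setting run, whereas Actb, Foxd3, Nfat5, Nfatc2, Nfatc4 and Src, none of them called, did. Of the 158, 45 lost their call without CA-NFATc3 replicate 3 and 38 without vector replicate 3. Leaving out an array kept the genes tested. Signals near the floor limit the folds: with a vector mean under 65.8, only a lower bound can be given.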

Other observations

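Several rises came in neighbouring genes. Ordered along the chromosomes of GRCm38.p6, 18 pairs of genes next to each other among those tested were both higher by at least 2-fold; these pairs were chosen after their values were seen and were not tested. Cav2 lay between Tes (1.22) and Cav1, and S100g lay beside Ap1s2 (1.88), a subunit of a clathrin adaptor. Gbp7 (1.87), Gbp3 and Gbp2b (1.73) formed a run of 3. These are related guanylate-binding proteins that may share probes, which was not checked. Bhmt (2.01), Bhmt2 (1.02) and Dmgdh (1.67), enzymes of betaine and dimethylglycine metabolism, also formed a run of 3. Other pairs were Ocln with Marveld2 (1.35), both of tight junctions, Trpm6 (1.55) with Anxa1, Grb14 (1.44) with Cobll1, and Ltbp1 (1.66) with Rasgrp3. On the X chromosome 29 of 393 genes tested were higher (7.38%), 14 of them by at least 2-fold (3.56%), against 4.62% and 1.79% over all genes tested. It had the highest shares of the chromosomes and was picked after these were seen. Chromosomes 1 (6.84% and 2.74%) and 6 (6.13% and 2.97%) came next, and the differences were not tested.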
